A study of Mus musculus with 12 samples.

Results

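The hippocampus of mice that had received a growth factor for lymphatic vessels alone was compared directly with that of mice that had received an antibody against amyloid alone. The first group, mVEGF-C+mIgG (mice 7, 8 and 9), carried a vector for the mouse form of vascular endothelial growth factor C, mVEGF-C, and was injected with control immunoglobulin (mIgG). The second, eGFP+mAdu (mice 4, 5 and 6), carried a vector for green fluorescent protein (eGFP) and was injected with mAducanumab (mAdu). These are 6 of the 12 libraries of the series, chosen by their labels, with all 14881 genes of the table. The groups differ in vector and in antibody at once, so a difference between them cannot be assigned to one or the other without the 2 remaining groups, the double control eGFP+mIgG (mice 1 to 3) and the combined treatment mVEGF-C+mAdu (mice 10 to 12).

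All mice were males of the strain labelled APPswe, which carries a mutant amyloid precursor protein transgene, and were 22 to 26 months old, per the labels. No group without the transgene was analysed here, and the promoter of the transgene is not given in the sources used here. Into every mouse 5 µL of vector (AAV1, an adeno-associated virus, with the CMV promoter) was injected into the cisterna magna and antibody was given weekly at 40 mg/kg into the abdominal cavity. RNA of 1 hippocampus per mouse was extracted and linearly amplified before sequencing. The title of the series asks how meningeal lymphatic function modifies immunotherapy against amyloid beta.

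VEGF-C is a secreted ligand of the receptor tyrosine kinase encoded by Flt4 and drives the growth of lymphatic vessels, which in the head lie in the meninges and drain cerebrospinal fluid. Aducanumab binds aggregated amyloid beta and carries an Fc part that receptors on microglia recognise. Amyloid beta is cut from the amyloid precursor protein by secretases and broken down by proteases such as insulin-degrading enzyme (Ide) and neprilysin. The hippocampus holds excitatory pyramidal and granule cells, inhibitory interneurons, myelinating oligodendrocytes, astrocytes and microglia, and its neurons switch on immediate early genes within minutes of activity.

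Library totals ran from 24222007 to 28098860 reads in the 6 libraries compared. The labels disagree on the tissue, with brain meninges as the source and hippocampus in the text of the series. Median levels of CA1, CA3 and dentate granule cell markers ran over the 12 libraries from 94.2 to 104 CPM, from 69.5 to 79.4 CPM and from 36.5 to 54.6 CPM, and those of meningeal and perivascular fibroblasts from 3.70 to 7.59 CPM (CPM, reads relative to a library total scaled to a common size). Within each group 1 library (mice 3, 6, 9 and 12) held the middle of the 3 values in 79.2 to 85.9% of the genes that varied beyond counting noise, where an equal share is 33.3%, and none of the other 8 libraries did so in more than 12.8%. The tests below treat the 3 libraries of a group as separate mice, as the labels describe them. Each p-value sets a difference against a spread between mice within groups that was estimated over all 12 libraries. Whether the 4 intermediate libraries are independent of the others in their groups was not tested, and if they were not, every n of 3, SD, SE and p below would rest on 2 mice per group. App, the gene of the amyloid precursor protein, was at 5487, 1342 and 3716 CPM in mice 4, 5 and 6, and at 4721, 4995 and 4786 CPM in mice 7, 8 and 9. Mouse 5 thus stood far below every other mouse although it carries the same strain label, and the difference in App did not pass (log2 0.46, SE 0.290, adjusted p = 0.639), at log2 0.07 without mouse 5.

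Between the single treatments 23 of 14881 genes passed edgeR's quasi-likelihood test at a Benjamini-Hochberg adjusted p under 0.05 (0.155%). Of these, 9 were higher in mVEGF-C+mIgG (0.0605%) and 14 were higher in eGFP+mAdu (0.0941%). All log2 fold changes below are mVEGF-C+mIgG minus eGFP+mAdu unless another contrast is named, so a positive value means higher with mVEGF-C. Among the genes that passed were an amyloid-degrading protease (Ide), an activity-dependent transcription factor (Npas4) and 3 oligodendrocyte genes (Mobp, Mal and Bcas1). Neuronal receptors, transporters and channels and secreted or matrix proteins were also among them. Others, such as Btaf1, Dsc3, Iqgap2 and Utp14b, belonged to none of these classes. Differences were small, from 1.17-fold to 2.39-fold, and 4 of the 23 genes exceeded 2-fold: Npas4, Tacr3, Pappa2 and Sec14l3. In each of the 23 genes the 3 mice of one group all lay above the 3 of the other, which held for 998 genes in the upward direction (6.71%) and 989 in the downward direction (6.65%). Over all genes the median log2 fold change was 0.003 and its median size 0.064, and 1512 genes (10.2%) had an unadjusted p under 0.05.

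The calls rested on particular libraries. Without mouse 6 or without mouse 9, 8 genes passed (Ide, Npas4, Btaf1, Tacr3, Rspo2, Agt, Mobp and Slc6a7), and the other 15 of the 23 did not. Without mouse 4 the count was 13, of which 10 were among the 23, and without mouse 12 it was 15. It was 124 without mouse 5 (52 higher and 72 lower), 82 without mouse 7 and 58 without mouse 8. When only the 6 libraries compared were fitted, 9 of the 23 passed. With the 4 intermediate libraries left out together no gene passed in edgeR's quasi-likelihood test and 506 had an unadjusted p under 0.05. All 23 genes then kept their direction, with a median size of 0.392 on the log2 scale in both fits and a median SE of 0.089 in place of 0.059. Leaving out libraries with middle values changes group means little, so the kept direction and size say little here. Ide, Npas4, Btaf1, Tacr3, Rspo2, Agt and Slc6a7 passed in 18 of 19 alternative analyses and missed the threshold only in that one.

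**Figure D1:**
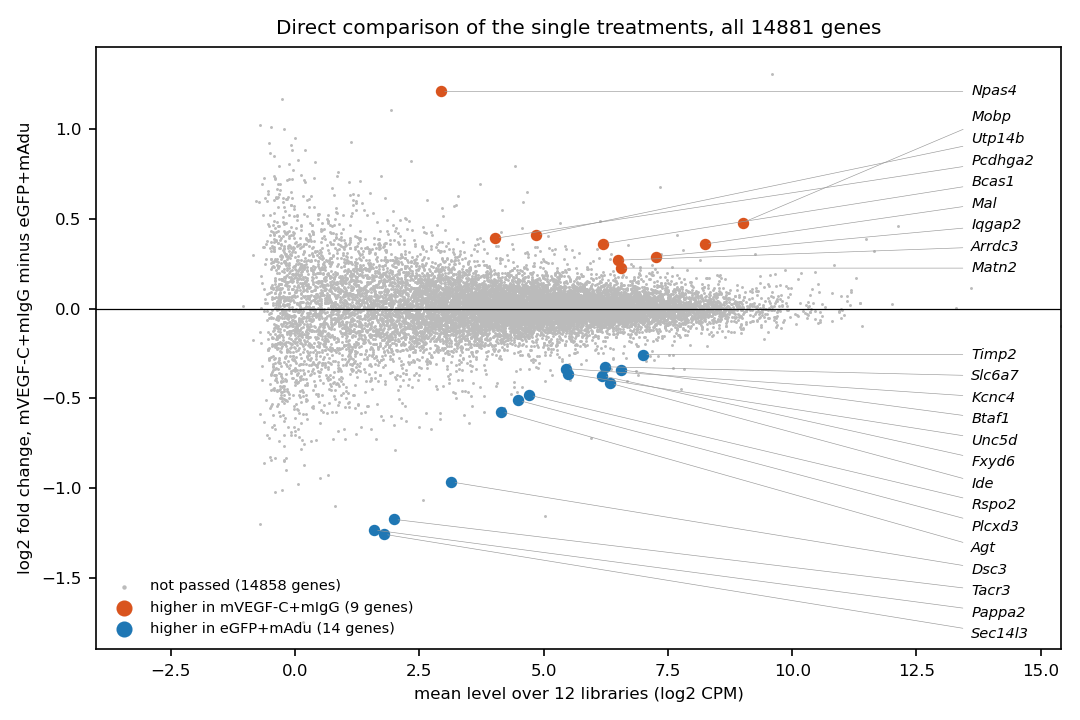
Log2 fold change of mVEGF-C+mIgG minus eGFP+mAdu (vertical axis) against mean level over 12 libraries in log2 CPM (horizontal axis) for all 14881 genes. The 9 genes higher with mVEGF-C (orange) and the 14 higher with mAducanumab (blue) are named, and the 4 past 2-fold lie toward the left, at low levels.

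Ide, the gene of the protease that degrades insulin and also amyloid beta, had the smallest p of all genes. It was at 98.8, 99.2 and 100.4 CPM in mice 4, 5 and 6 and at 71.1, 76.7 and 75.7 CPM in mice 7, 8 and 9. The antibody group was high in every mouse, including mouse 5 with its low App, and the groups did not overlap. Its level was 1.33-fold higher with mAducanumab (log2 -0.42, SE 0.0379, adjusted p = 0.000145). The double control was at 71.1 ± 1.34 CPM (SD, n = 3) and the combined group at 81.0 ± 1.81 CPM (SD, n = 3). Against the double control Ide was higher in eGFP+mAdu (log2 0.48, SE 0.0380, adjusted p = 1.67e-05), while in mVEGF-C+mIgG the log2 fold change was 0.07 (SE 0.0386, adjusted p = 0.681). These comparisons share their control mice, and the log2 values stand side by side only as positions of the groups. In bulk tissue, more cells expressing a gene and more RNA per cell cannot be told apart.

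Btaf1 encodes an ATPase that removes the TATA-binding protein from DNA and lies on the same chromosome arm as Ide. It was at 110.2, 111 and 116 CPM in mice 4, 5 and 6 and at 89.4, 86.7 and 89.7 CPM in mice 7, 8 and 9. All 3 antibody mice lay above all 3 mVEGF-C mice (log2 -0.34, SE 0.0365, adjusted p = 0.000434). Against the double control at 82.3 ± 2.35 CPM (SD, n = 3), Btaf1 was higher in eGFP+mAdu (log2 0.45, SE 0.0366, adjusted p = 1.67e-05), and the log2 fold change in mVEGF-C+mIgG was 0.11 (SE 0.0370, adjusted p = 0.554).

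Btaf1 (chromosome 19, 36926079 to 37012752) and Ide (chromosome 19, 37268743 to 37337852, GRCm38) are separated by 2 measured genes, Cpeb3 and March5. Their neighbourhood was looked at after these values were seen. Within 500 kb, 14 genes including both were measured and 12 did not pass. Cpeb3 and March5 were at log2 0.01 (SE 0.0544) and -0.02 (SE 0.0464), and Tnks2 and Exoc6, on the outer sides, at 0.07 (SE 0.0356) and 0.05 (SE 0.0496). Fgfbp3, directly before Btaf1, was at -0.43 (SE 0.106) with an adjusted p of 0.139. Its level was 5.23, 5.86 and 6.17 CPM in mice 4, 5 and 6. In mice 7, 8 and 9 it was 4.44, 4.13 and 4.23 CPM, without overlap. The 2 genes that passed were not adjacent, with Cpeb3 and March5 near 0 between them and Fgfbp3 away from 0 beside Btaf1. A shared cause of these differences was not tested.

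The other genes of amyloid breakdown and transport were mostly level. Of 20 measured members of the list for amyloid degradation and clearance, 9 were positive and 11 negative, with a median of 0.00 beside 0.003 over all genes, and Ide alone passed. Ece1, which encodes endothelin-converting enzyme, another protease of amyloid beta, was at 37.7, 39.5 and 38.5 CPM in mice 4, 5 and 6 and at 33.9, 34.4 and 32.7 CPM in mice 7, 8 and 9 (log2 -0.19, SE 0.0482, adjusted p = 0.139). Mmp14, a membrane metalloproteinase, and Pitrm1, a mitochondrial peptidase that also cuts amyloid beta, had log2 fold changes of -0.22 and -0.11 and adjusted p of 0.389 and 0.468. These 4 genes of 20 had separate groups with the antibody group on top, beside 6.65% of all genes. Apoe, the lipid carrier of astrocytes and microglia, was at log2 -0.01 (SE 0.0424) and Clu, an extracellular chaperone, at 0.02 (SE 0.0313). Among 16 genes of precursor processing 8 were positive and 8 negative and none passed. In 3 of them (18.8%, beside 6.71% of all genes), Sorl1 included, the mVEGF-C mice all lay above the antibody mice. In 1 (6.25%, beside 6.65%) they all lay below. Sorl1, a sorting receptor of the precursor protein, was at 321, 359 and 335 CPM in mice 4, 5 and 6 and at 375, 403 and 378 CPM in mice 7, 8 and 9, without overlap (log2 0.19, SE 0.0427, adjusted p = 0.0976).

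**Figure D2:**
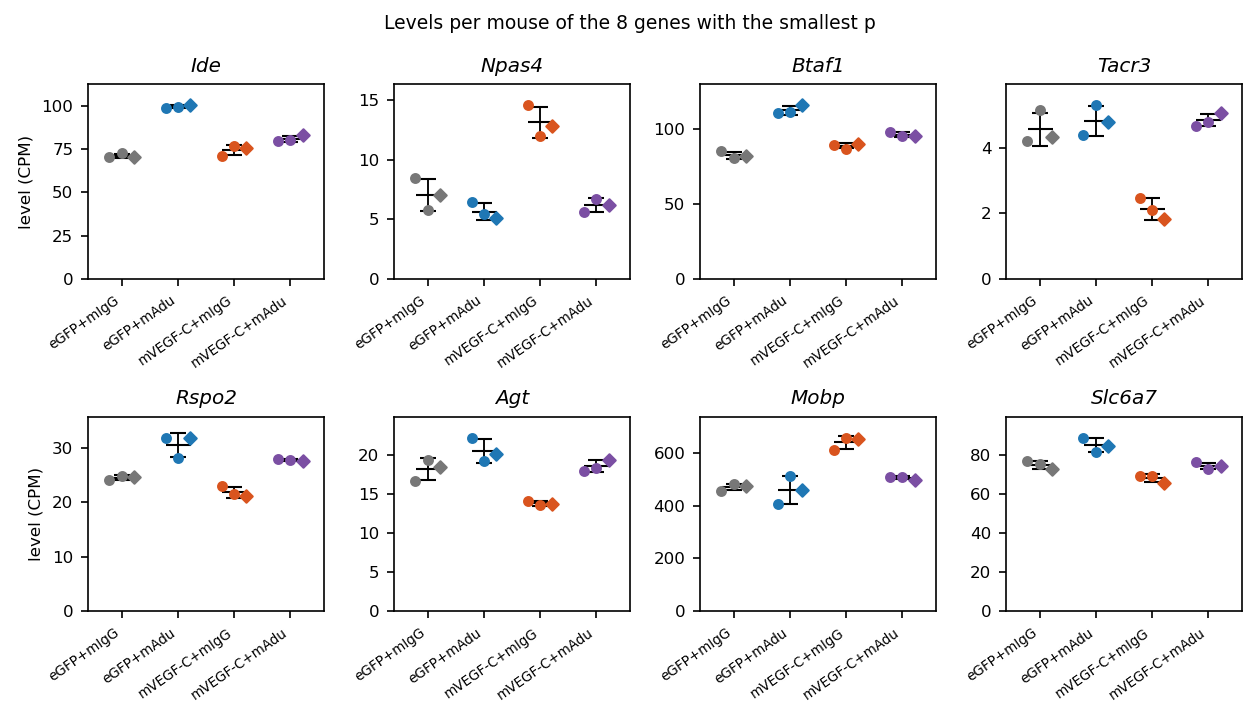
Level in CPM (vertical axes, from 0) of the 8 genes with the smallest p in each of the 12 mice, by group. Coloured points are mice, with diamonds for mice 3, 6, 9 and 12, and black bars are the group mean with its SD. The eGFP+mAdu mice stand highest for Ide and Btaf1, and the mVEGF-C+mIgG mice stand apart from the 3 other groups for Npas4, Tacr3, Agt and Mobp.

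Npas4, a transcription factor induced in neurons by calcium entry, was the gene with the largest excess with mVEGF-C among those that passed. It was at 6.44, 5.45 and 5.07 CPM in mice 4, 5 and 6 and at 14.6, 12.0 and 12.8 CPM in mice 7, 8 and 9. Every mVEGF-C mouse thus lay above every antibody mouse (2.31-fold, log2 1.21, SE 0.129, adjusted p = 0.000434). The double control was at 7.08 ± 1.35 CPM (SD, n = 3) and the combined group at 6.21 ± 0.553 CPM (SD, n = 3). Against the double control the log2 fold change was 0.88 in mVEGF-C+mIgG (SE 0.126, adjusted p = 0.0133) and -0.33 in eGFP+mAdu (SE 0.137, adjusted p = 0.486).

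Most other immediate early genes were also positive, but none of them passed, and Npas4 was the only one of the 30 members that did. Of the 30, Npas4 included, 26 were positive (86.7%, beside 51.4% of all genes) and 4 negative, and the median was 0.28. In 16 of them (53.3%) the mVEGF-C mice all lay above the antibody mice, beside 6.71% of all genes, and in 14 (46.7%, beside 5.17%) the unadjusted p was under 0.05 in that direction. Fos, a subunit of the AP-1 transcription factor, was at 18.9, 16.3 and 15.8 CPM in mice 4, 5 and 6 and at 26.8, 30.8 and 31.2 CPM in mice 7, 8 and 9. The groups did not overlap, but Fos missed the threshold (log2 0.80, SE 0.156, adjusted p = 0.0539), and it passed in 9 of the 19 alternative analyses, among them those without mouse 1, 2, 7, 10 or 11. Arc, whose protein acts at synapses in receptor uptake, was at 127, 132 and 126 CPM against 192, 224 and 199 CPM, again without overlap (log2 0.68, SE 0.134, adjusted p = 0.0539). Btg2, an antiproliferative early gene, stood at log2 0.60 (SE 0.114, adjusted p = 0.0528) and Junb, another AP-1 subunit, at 0.49 (SE 0.0984, adjusted p = 0.0592). Egr2, a zinc finger factor, was at 2.39, 2.87 and 2.23 CPM against 5.46, 5.72 and 4.99 CPM (log2 1.11, SE 0.284, adjusted p = 0.140).

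The 4 negative members were Klf4, Fosl2, Nr4a2 and Egr3, none below log2 -0.15, and for Klf4 the antibody mice all lay above the mVEGF-C mice. As a mean over the list, centred for each gene, the level was -0.179, -0.116 and -0.152 in mice 4, 5 and 6 and 0.152, 0.222 and 0.138 in mice 7, 8 and 9. The 3 control mice were at -0.325, -0.027 and -0.177 and the 3 combined mice at 0.008, 0.317 and 0.140. Both groups with the mVEGF-C vector therefore lay above both groups with the eGFP vector in every mouse. Npas4 departed from this order: Fos was at 29.1 ± 6.70 CPM (SD, n = 3) in the combined group, near its level with mVEGF-C alone, whereas Npas4 there was near that of the antibody group.

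**Figure D3:**
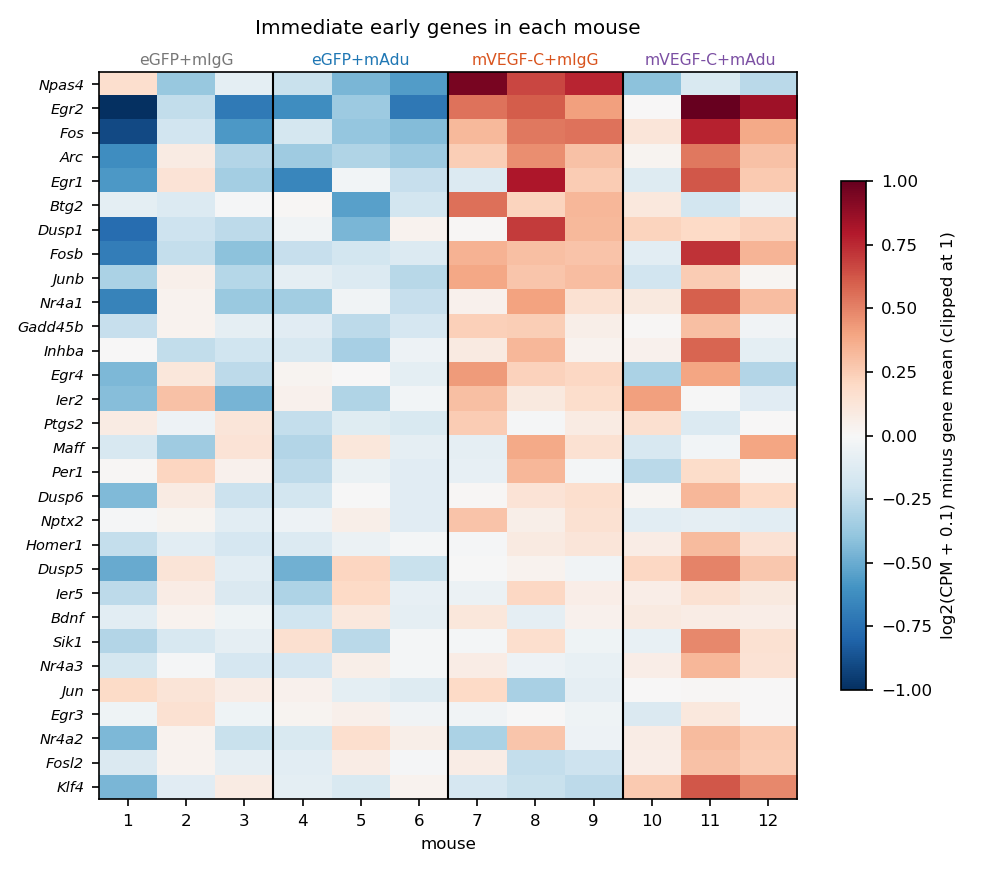
Log2(CPM + 0.1) minus the gene's mean over 12 mice (colour, red above and blue below the mean, clipped at 1) for the 30 immediate early genes (rows, ordered by log2 fold change) in each mouse (columns, 4 groups separated by lines). Mice 7, 8 and 9 are red and mice 4, 5 and 6 blue for most genes in the upper rows, and the Npas4 row is red in mice 7, 8 and 9 and blue in mice 10 to 12.

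The promoters of Npas4, the early gene that passed, and of Fos, chosen after its values were seen, are shown because both genes are textbook targets of calcium-activated transcription. The sequences are from RefSeq (GRCm38.p6), 250 bases before to 50 after the annotated start, read along the gene's strand: Npas4 at chr19:4989922-4990221 on the minus strand and Fos at chr12:85473640-85473939 on the plus strand. Capitals mark the letters TGACG or its complement CGTCA, the core of the cyclic AMP response element, a motif added after the sequences were seen.
Npas4: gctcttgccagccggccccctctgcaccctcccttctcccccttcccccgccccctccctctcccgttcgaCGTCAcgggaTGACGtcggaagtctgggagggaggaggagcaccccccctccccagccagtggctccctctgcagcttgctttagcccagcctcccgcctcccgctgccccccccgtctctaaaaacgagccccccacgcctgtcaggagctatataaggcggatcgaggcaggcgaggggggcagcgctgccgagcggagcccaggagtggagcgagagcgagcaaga
Fos: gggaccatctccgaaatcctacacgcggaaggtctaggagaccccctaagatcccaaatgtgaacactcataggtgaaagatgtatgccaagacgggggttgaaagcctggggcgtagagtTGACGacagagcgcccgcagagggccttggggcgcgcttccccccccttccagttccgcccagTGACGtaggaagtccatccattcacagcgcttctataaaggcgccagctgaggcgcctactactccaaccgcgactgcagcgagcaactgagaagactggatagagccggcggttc
Neither window held the full element TGACGTCA, the AP-1 motif TGANTCA or the interferon-stimulated response element on either strand. Those were present in 1.79%, 7.81% and 3.44% of 32851 promoters of that length. The shorter core, which the full element contains, was present in 2 places in each of the windows and in 20.8% of all promoters. A match describes letters only and no binding was measured.

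Myelin genes formed the second group on the mVEGF-C side. Mobp, which encodes a basic protein of compact myelin, was at 405, 512 and 459.7 CPM in mice 4, 5 and 6 and at 611, 658 and 651 CPM in mice 7, 8 and 9. The lowest mVEGF-C mouse lay above the highest antibody mouse (1.39-fold, log2 0.48, SE 0.0614, adjusted p = 0.00181). The double control was at 470.3 ± 12.8 CPM (SD, n = 3) and the combined group at 505 ± 6.46 CPM (SD, n = 3), so mVEGF-C alone was the group that stood apart. Against the double control Mobp was higher with mVEGF-C (log2 0.44, SE 0.0614, adjusted p = 0.0117), and the log2 fold change with mAducanumab was -0.04 (SE 0.0615, adjusted p = 0.904).

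Mal, a proteolipid of myelin membranes, was at 242, 283 and 257 CPM in mice 4, 5 and 6 and at 312, 346 and 345 CPM in mice 7, 8 and 9 (log2 0.36, SE 0.0587, adjusted p = 0.0194). Its double control was at 321 ± 21.2 CPM (SD, n = 3), within the range of the mVEGF-C mice and above the antibody mice. Bcas1, which marks oligodendrocytes that are starting to myelinate, was at 63.2, 73.9 and 67.9 CPM against 82.1, 93.7 and 87.6 CPM, without overlap (log2 0.36, SE 0.0620, adjusted p = 0.0247). For Bcas1 the double control, at 65.4 ± 4.81 CPM (SD, n = 3), lay with the antibody mice. Against the double control Bcas1 was higher with mVEGF-C (log2 0.43, SE 0.0623, adjusted p = 0.0138). For Mal the log2 fold change with mAducanumab was -0.30 (SE 0.0587) and did not pass (adjusted p = 0.129). By position, Mobp and Bcas1 were thus set apart on the mVEGF-C side of the control and Mal on the antibody side.

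All 17 measured genes of the oligodendrocyte and myelin list were positive, with a median of 0.22, and Mobp and Mal passed. Unadjusted p was under 0.05 for 12 of them (70.6%, beside 5.17% of all genes), and groups were separate for 3 (17.6%, beside 6.71%): Mobp, Mal and Opalin. Mbp, myelin basic protein, was at 996, 1243 and 1107 CPM against 1219, 1375 and 1241 CPM, with overlap between mouse 5 and mice 7 and 9 (log2 0.20, SE 0.0814, adjusted p = 0.420). The mice of 1 group differed from each other across the whole list. All 17 genes were highest in mouse 5 among the antibody mice and 16 were lowest in mouse 4. All 17 were lowest in mouse 7 among the mVEGF-C mice and 16 were highest in mouse 8. List levels were -0.283, 0.093 and -0.118 in mice 4, 5 and 6 and -0.045, 0.318 and 0.169 in mice 7, 8 and 9, so the groups overlapped. The list median was 0.15 without mouse 4 and 0.35 without mouse 7. Of 11 genes of precursors and newly formed oligodendrocytes, 6 were positive with a median of 0.02. Bcas1 belongs to that list and was its only member that passed, higher with mVEGF-C as above, while Gpr17, a receptor of premyelinating cells, had a log2 fold change of -0.24 (adjusted p = 0.209).

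Tacr3, the neurokinin B receptor, was at 4.40, 5.31 and 4.79 CPM in mice 4, 5 and 6 and at 2.49, 2.11 and 1.83 CPM in mice 7, 8 and 9. All 3 mVEGF-C mice were low and the groups were separate (2.26-fold, log2 -1.17, SE 0.140, adjusted p = 0.00127). The double control was at 4.57 ± 0.515 CPM (SD, n = 3) and the combined group at 4.86 ± 0.197 CPM (SD, n = 3). Against the double control Tacr3 was lower with mVEGF-C (log2 -1.09, SE 0.142, adjusted p = 0.00834), and the log2 fold change with mAducanumab was 0.09 (SE 0.124, adjusted p = 0.872).

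Slc6a7, the brain proline transporter of excitatory terminals, was at 89.0, 81.7 and 84.9 CPM against 69.4, 69.1 and 65.7 CPM (log2 -0.32, SE 0.0418, adjusted p = 0.00181). Its control and combined groups lay between the single treatments, at 75.1 ± 1.98 and 74.5 ± 1.73 CPM (SD, n = 3 each). Kcnc4, a subunit of fast voltage-gated potassium channels, was at 45.9, 49.7 and 47.8 CPM against 39.0, 39.7 and 35.03 CPM (log2 -0.33, SE 0.0582, adjusted p = 0.0247). Unc5d, a receptor of the netrin and FLRT guidance ligands, was at 53.3, 52.1 and 51.5 CPM against 37.3, 44.1 and 40.6 CPM (log2 -0.36, SE 0.0569, adjusted p = 0.0154). In each of these 3 genes the lowest antibody mouse lay above the highest mVEGF-C mouse. Fxyd6, a regulator of the sodium pump, was at 86.8, 76.1 and 84.1 CPM against 66.4, 61.5 and 62.7 CPM (log2 -0.37, SE 0.0547, adjusted p = 0.00747). Pcdhga2, a protocadherin of neuronal surfaces, was in the opposite direction, at 14.4, 14.5 and 13.7 CPM against 20.4, 17.6 and 17.99 CPM (log2 0.39, SE 0.0722, adjusted p = 0.0397). Its counts are uncertain, since the gene shares exons with the other genes of its cluster and the treatment of shared reads is not given in the sources used here.

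Of 21 measured neuropeptides and receptors, 7 were positive and 14 negative, with a median of -0.10, and Tacr3 alone passed. In 5 of them (23.8%, beside 6.65% of all genes) the antibody mice all lay above the mVEGF-C mice. Sst, the interneuron peptide somatostatin, was at 86.4, 102 and 95.1 CPM in mice 4, 5 and 6 and at 83.6, 73.1 and 76.3 CPM in mice 7, 8 and 9, separate but short of the threshold (log2 -0.28, SE 0.0581, adjusted p = 0.0649). Crhr1, a receptor of corticotropin-releasing hormone, was at 13.2, 13.3 and 12.3 CPM against 6.80, 11.8 and 9.57 CPM, lowest in mouse 7 (log2 -0.46, SE 0.149, adjusted p = 0.266). Penk, the enkephalin precursor, was at 28.0, 25.3 and 28.5 CPM against 14.8, 25.8 and 19.8 CPM, where mouse 8 reached the antibody mice (log2 -0.44, SE 0.132, adjusted p = 0.232). Slc17a7, the vesicular glutamate transporter, had a log2 fold change of -0.06 (SE 0.0425) and Gad1, the enzyme that makes GABA, one of -0.07 (SE 0.0358). The list of excitatory neuron genes lay on the other side of 0 from Slc17a7: 9 of 12 were positive with a median of 0.11, 5 (41.7%, beside 5.17% of all genes) had an unadjusted p under 0.05 in that direction, 3 (25.0%, beside 6.71%) had separate groups and none passed. Nrgn, a calmodulin-binding protein of dendrites, was at 243, 255 and 246 CPM in mice 4, 5 and 6 and at 295, 277 and 266 CPM in mice 7, 8 and 9 (log2 0.17, SE 0.0430, adjusted p = 0.139).

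Rspo2, a secreted enhancer of Wnt signalling, was at 31.8, 28.1 and 31.9 CPM in mice 4, 5 and 6 and at 23.1, 21.5 and 21.1 CPM in mice 7, 8 and 9 (1.40-fold, log2 -0.48, SE 0.0582, adjusted p = 0.00127). Agt, the astrocyte gene of angiotensinogen, was at 22.2, 19.2 and 20.05 CPM against 14.1, 13.5 and 13.7 CPM (1.49-fold, log2 -0.57, SE 0.0724, adjusted p = 0.00181). Both genes were separate between groups, but the double control lay differently. For Rspo2 it was at 24.6 ± 0.380 CPM (SD, n = 3), nearer the mVEGF-C mice, and for Agt at 18.2 ± 1.40 CPM (SD, n = 3), nearer the antibody mice. Of 12 astrocyte markers 3 were positive and 9 negative with a median of -0.02, and Agt alone passed. Fgfr3, a growth factor receptor of astrocytes, was at 115, 105 and 108 CPM against 87.7, 93.4 and 89.7 CPM, separate but short of the threshold (log2 -0.28, SE 0.0744, adjusted p = 0.165).

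Pappa2, a protease that frees insulin-like growth factors from their binding proteins, was at 4.26, 3.94 and 4.46 CPM against 2.12, 1.07 and 2.17 CPM, lowest in mouse 8 (2.35-fold, log2 -1.23, SE 0.202, adjusted p = 0.0194). Timp2, an inhibitor of matrix metalloproteinases, was at 143, 129.8 and 139 CPM against 112, 119 and 114 CPM (log2 -0.26, SE 0.0436, adjusted p = 0.0241). Matn2, an extracellular matrix adaptor, was in the other direction, at 87.2, 85.1 and 88.1 CPM against 106, 99.3 and 98.6 CPM (log2 0.23, SE 0.0412, adjusted p = 0.0373). Groups were separate for all 3. Matn2 was the smallest difference that passed, and it did so in 9 of the 19 alternative analyses. Of 20 collagens, laminins and other matrix genes 17 were negative and 3 positive (15%, beside 51.4% of all genes). Their median was -0.10 and none passed. In the negative direction 5 had an unadjusted p under 0.05 (25%, beside 4.99%) and 3 had separate groups (15%, beside 6.65%). The list level was 0.16, 0.014 and 0.1 in mice 4, 5 and 6. It was -0.038, -0.033 and -0.11 in mice 7, 8 and 9, without overlap.

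Of the remaining genes, 3 were higher with mAducanumab. Dsc3, a desmosomal cadherin, was at 10.1, 11.5 and 11.3 CPM in mice 4, 5 and 6 and at 4.97, 6.52 and 5.34 CPM in mice 7, 8 and 9 (1.95-fold, log2 -0.97, SE 0.160, adjusted p = 0.0202). Plcxd3, of the phospholipase C domain family, was at 28.2, 25.5 and 29.2 CPM against 17.3, 21.8 and 19.0 CPM (log2 -0.51, SE 0.0857, adjusted p = 0.0221). Sec14l3, a lipid-binding protein, was at 4.68, 5.82 and 5.15 CPM against 2.69, 2.31 and 1.56 CPM, the largest difference of the 23 (2.39-fold, log2 -1.26, SE 0.221, adjusted p = 0.0258). All 3 mVEGF-C mice were below all 3 antibody mice in each.

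A further 3 genes were higher with mVEGF-C. Arrdc3, an arrestin-like adaptor of receptor ubiquitination, was at 77.5, 82.5 and 80.8 CPM in mice 4, 5 and 6 and at 92.9, 97.4 and 99.95 CPM in mice 7, 8 and 9 (log2 0.27, SE 0.0442, adjusted p = 0.0194). Iqgap2, a cytoskeletal scaffold, was at 126, 140.3 and 138 CPM against 176, 154 and 165 CPM (log2 0.29, SE 0.0503, adjusted p = 0.0247). Utp14b, a gene of ribosome assembly, was at 21.2, 24.6 and 24.4 CPM against 32.0, 31.0 and 30.1 CPM (log2 0.41, SE 0.0711, adjusted p = 0.0247). All 3 mVEGF-C mice were above all antibody mice in each. Utp14b lies within Acsl3 on the same strand, so its reads are uncertain. Ide, Mobp, Unc5d, Pappa2 and Timp2 also overlap annotated genes on their own strand. Iqgap2, Matn2, Arrdc3 and Bcas1 overlap genes on the other strand, and the strand setting of the counting is not given in the sources used here.

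Placed against the double control, the 23 genes lay differently. Ide and Btaf1 passed in eGFP+mAdu against the double control (5 genes in all, 0.0336%, and 9.21% at an unadjusted p under 0.05), and Npas4, Tacr3, Mobp and Bcas1 passed in mVEGF-C+mIgG against it (6 in all, 0.0403%, and 7.91% at an unadjusted p under 0.05). The other 17 passed in neither, and for many of these the control lay between the single treatments: Rspo2 was at log2 0.32 (SE 0.0575) with mAducanumab and -0.17 (SE 0.0594) with mVEGF-C, and Sec14l3 at 0.68 (SE 0.206) and -0.58 (SE 0.236). Iqgap2 and Utp14b were near the control with mVEGF-C, at 0.01 (SE 0.0501) and 0.06 (SE 0.0698), and below it with mAducanumab, at -0.28 (SE 0.0503) and -0.34 (SE 0.0712). The mean of the combined group was nearer the antibody group in 12 of the 23 genes and nearer the mVEGF-C group in 11, beside 47.1% of all genes nearer the antibody group. Vwf, the von Willebrand factor of blood vessel endothelium, was an example of a gene that the direct comparison does not show. It was at 16.1 ± 0.503 CPM in the control, 9.51 ± 1.13 CPM with mAducanumab and 11.1 ± 1.11 CPM with mVEGF-C (SD, n = 3 each), and the direct difference did not pass (log2 0.22, SE 0.0981, adjusted p = 0.473). Against the control Vwf passed with mAducanumab (log2 -0.75, SE 0.0944, adjusted p = 0.00257). With mVEGF-C it missed the threshold (log2 -0.54, SE 0.0934, adjusted p = 0.0731).

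**Figure D4:**
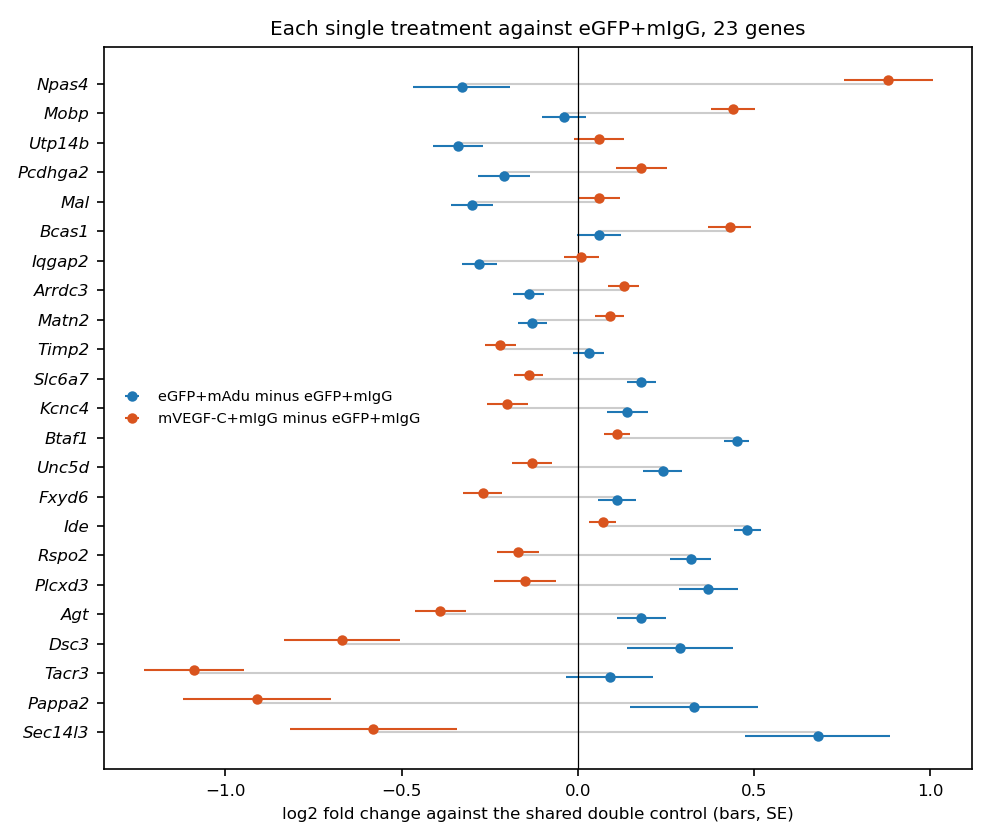
Log2 fold change of eGFP+mAdu (blue) and of mVEGF-C+mIgG (orange) against the shared double control eGFP+mIgG (horizontal axis, bars are SE) for the 23 genes (rows, ordered by the direct difference). Ide and Btaf1 lie away from 0 on the antibody side, Npas4, Mobp, Bcas1 and Tacr3 on the mVEGF-C side, and Rspo2 and Sec14l3 lie on both sides of 0.

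Genes that microglia and other immune cells use after Fc receptors are engaged did not pass. Of 17 Fc receptor and phagocytosis genes 15 were positive (88.2%, beside 51.4% of all genes), with a median of 0.12, and none passed. Unadjusted p was under 0.05 in that direction for 5.88% (beside 5.17%). Fcgr3, a low-affinity Fc receptor, was at 14.6, 16.4 and 14.7 CPM in mice 4, 5 and 6 and at 13.1, 19.2 and 16.7 CPM in mice 7, 8 and 9, with the mVEGF-C mice on both sides of the antibody mice (log2 0.10, SE 0.108, adjusted p = 0.807). Trem2, a lipid receptor of plaque-associated microglia, was at 11.8, 17.8 and 13.4 CPM against 14.4, 16.97 and 14.8 CPM (log2 0.10, SE 0.119, adjusted p = 0.833). Clec7a, a lectin receptor of such cells, was at 1.04, 3.43 and 2.48 CPM against 1.87, 5.17 and 2.78 CPM (log2 0.51, SE 0.359, adjusted p = 0.682). Of 24 disease-associated microglia genes 21 were positive (87.5%, beside 51.4% of all genes) with a median of 0.14. In that direction 16.7% had an unadjusted p under 0.05 (beside 5.17%), and 4.17% had separate groups (beside 6.71%). Homeostatic microglia genes had a median of 0.02. In both groups the spread between mice was wide: the disease-associated list stood at -0.223, 0.233 and -0.014 in mice 4, 5 and 6 and at -0.106, 0.443 and 0.190 in mice 7, 8 and 9, low in mice 4 and 7 and high in mice 5 and 8, as the myelin list did.

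Interferon-stimulated genes had a median of 0.26, with 26 of 27 positive (96.3%, beside 51.4% of all genes), 8 at an unadjusted p under 0.05 (29.6%, beside 5.17%), 4 with separate groups (14.8%, beside 6.71%) and none passing. Ifit3, an antiviral effector, was at 7.97, 9.91 and 10.0 CPM in mice 4, 5 and 6 and at 10.3, 17.3 and 14.0 CPM in mice 7, 8 and 9, just without overlap (log2 0.58, SE 0.148, adjusted p = 0.139). Usp18, a protease that removes ISG15, was at 0.693, 1.03 and 1.01 CPM against 1.26, 2.11 and 1.75 CPM, also without overlap (log2 0.91, SE 0.265, adjusted p = 0.206). Of the 27 genes, 24 were lowest in mouse 7 among the mVEGF-C mice and 21 highest in mouse 8. List levels were -0.066, 0.147 and 0.053 in mice 4, 5 and 6 and 0.026, 0.559 and 0.376 in mice 7, 8 and 9. Mouse 7 thus lay within the antibody mice, and the list median was 0.16 without mouse 8. Mice of the combined group were at -0.395, -0.365 and -0.332, below every other mouse.

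Reactive astrocyte, complement and antigen presentation genes had medians of 0.16, 0.17 and 0.09 and no member passed. In the same order 82.4, 78.6 and 76.5% were positive (beside 51.4% of all genes). Unadjusted p was under 0.05 in that direction for 29.4, 14.3 and 23.5% (beside 5.17%). Groups were separate for 17.6, 0.0 and 11.8% (beside 6.71%). C4b, the complement component made by glia, was at 128, 292 and 188 CPM in mice 4, 5 and 6 and at 190.3, 346 and 272 CPM in mice 7, 8 and 9, with broad overlap (log2 0.41, SE 0.227, adjusted p = 0.570). C3, the central complement component, was at 6.51, 7.66 and 7.22 CPM against 7.62, 13.2 and 10.6 CPM (log2 0.56, SE 0.160, adjusted p = 0.195). Lcn2, a secreted iron-siderophore binder of reactive astrocytes, was at 0.173, 0.995 and 0.487 CPM against 1.02, 0.914 and 1.18 CPM (log2 0.92, SE 0.369, adjusted p = 0.405). The double control for Lcn2 was at 1.52 ± 0.0659 CPM (SD, n = 3), above the means of eGFP+mAdu (0.552 CPM) and mVEGF-C+mIgG (1.04 CPM). Mouse 5 lay among the mVEGF-C mice for Lcn2, and without it the log2 fold change was 1.69 and the adjusted p 0.0403. Gfap, the astrocyte filament protein, was at log2 0.11 (SE 0.111, adjusted p = 0.785).

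Vegfc, the gene that the vector carries, was at 3.50, 3.13 and 3.25 CPM in mice 4, 5 and 6 and at 3.67, 2.27 and 2.21 CPM in mice 7, 8 and 9 (log2 -0.28, SE 0.176, adjusted p = 0.632). Flt4, its main receptor, was at 1.39, 1.03 and 1.66 CPM against 1.26, 1.43 and 1.26 CPM (log2 -0.04, SE 0.197, adjusted p = 0.976). Of 14 VEGF ligands and receptors 5 were positive and 9 negative with a median of -0.06, and none passed. In 2 of them, Vegfb and Vegfd, other ligands of the family, the antibody mice all lay above the mVEGF-C mice (14.3%, beside 6.65% of all genes), with log2 fold changes of -0.15 (SE 0.0670, adjusted p = 0.476) and -0.53 (SE 0.215, adjusted p = 0.410). Of 7 listed markers of lymphatic endothelium 4 were measured, among them Prox1 and Reln, which neurons also express, and none passed. Blood vessel endothelium genes had a median of 0.04.

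Markers of tissue at the border of the hippocampus moved between mice of 1 group. Of 18 meningeal and perivascular fibroblast genes 17 were negative with a median of -0.39, 6 had an unadjusted p under 0.05 (33.3%, beside 4.99% of all genes in that direction) and none passed. The list level was 0.594, -0.332 and 0.243 in mice 4, 5 and 6 and -0.073, -0.209 and -0.129 in mice 7, 8 and 9, so the antibody mice lay on both sides of the mVEGF-C mice. Without mouse 4 the median was -0.11 and without mouse 5 it was -0.60. Summed over the list the level ran from 217 to 293 CPM in the antibody mice and from 169 to 229 CPM in the mVEGF-C mice. Ttr, transthyretin, the main product of the choroid plexus, was at 63.1, 46.1 and 59.6 CPM in mice 4, 5 and 6 and at 19.2, 29.1 and 27.4 CPM in mice 7, 8 and 9, without overlap (log2 -1.15, SE 0.233, adjusted p = 0.0592). Ttr passed in 7 of the 19 alternative analyses, among them those without mouse 1, 2, 5 or 8, with adjusted p of 0.00511, 0.0103, 0.0266 and 0.0461. Of the 10 choroid plexus genes measured, Ttr included, 5 were positive and the median was 0.03. The antibody mice all lay on top in 2 of them (20%, beside 6.65% of all genes). These were Ttr and Kcnj13, a potassium channel of that epithelium (log2 -0.85, adjusted p = 0.258). Unadjusted p was under 0.05 for 2 genes in that direction (20%, beside 4.99%) and for 1 in the other (10%, beside 5.17%). When the list's level entered the fit as a covariate 24 genes passed, of which 14 were among the 23; Bcas1, Iqgap2, Kcnc4, Matn2, Pappa2, Pcdhga2, Sec14l3, Timp2 and Utp14b then missed the threshold. The part of border tissue in the other differences was not tested.

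Housekeeping and metabolic lists were level. Genes of lysosomes, ribosomal proteins and the heat shock and unfolded protein response each had a median of 0.00, the nuclear-encoded respiratory chain one of -0.02 and cholesterol synthesis one of 0.03. None of their members passed. Glucocorticoid-responsive genes were less level, with a median of 0.14 and 13 of 14 positive (92.9%, beside 51.4% of all genes). Of these, 28.6% had an unadjusted p under 0.05 (beside 5.17%), 28.6% had separate groups (beside 6.71%) and none passed. Against the double control their median was -0.18 in eGFP+mAdu and 0 in mVEGF-C+mIgG. Klf9, a zinc finger factor of that response, was at 195, 211 and 207 CPM in mice 4, 5 and 6 and at 217, 232 and 229 CPM in mice 7, 8 and 9 (log2 0.15, SE 0.0443, adjusted p = 0.232). Dentate granule cell markers had a median of 0.13, and 10 of 12 were positive (83.3%, beside 51.4% of all genes). In this direction 33.3% of them had an unadjusted p under 0.05 (beside 5.17%), 16.7% had separate groups (beside 6.71%) and none passed. Against the double control their median was -0.21 in eGFP+mAdu and -0.12 in mVEGF-C+mIgG. Dsp, a desmosomal plaque protein, led them at 32.0, 31.2 and 33.4 CPM against 53.3, 38.0 and 42.9 CPM (log2 0.48, SE 0.115, adjusted p = 0.124). The level of the dentate list was -0.123, -0.082 and -0.128 in mice 4, 5 and 6. It was 0.162, -0.083 and -0.001 in mice 7, 8 and 9, so mouse 8 lay within the antibody mice. Of the 43 lists, 6 held a gene that passed and 37 did not, and 16 of the 23 genes were in none.

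**Figure D5:**
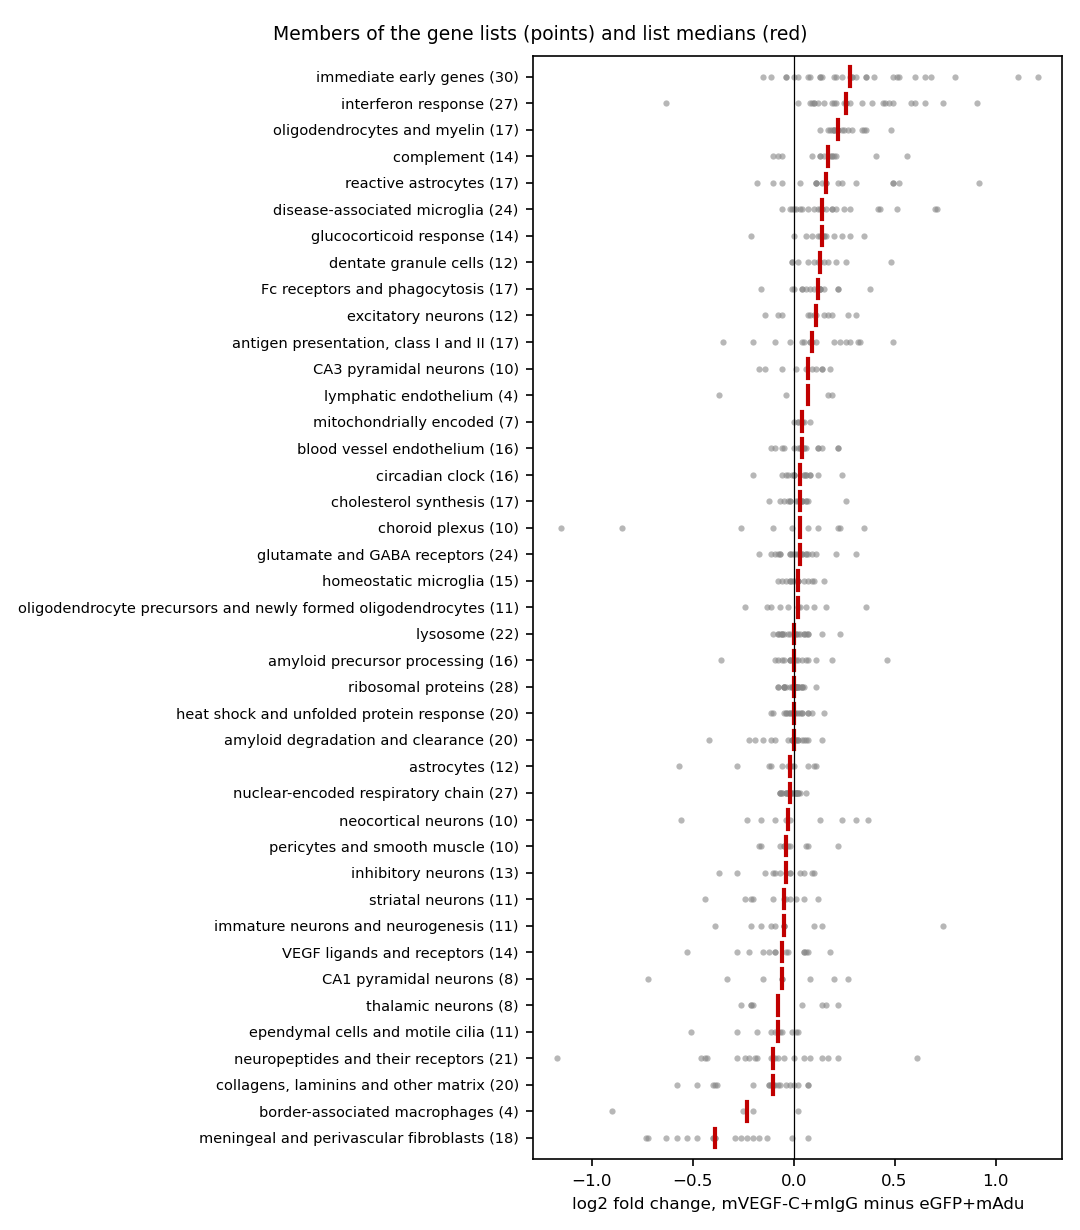
Log2 fold change of mVEGF-C+mIgG minus eGFP+mAdu (horizontal axis) for the members (grey points) of the gene lists with at least 3 measured genes (rows, number measured in brackets), with list medians in red. Medians of immediate early, interferon and myelin genes lie highest, at 0.28, 0.26 and 0.22, and that of meningeal and perivascular fibroblasts lowest, at -0.39.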

How the data were processed

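Raw read counts per gene were deposited by the authors for 12 libraries, without normalization, per the values of the table. FastQC, Trim Galore, STAR, Subread, featureCounts, edgeR and the mouse build mm10 are named in the submitters' processing notes. For these tools, versions, annotation, strand setting and handling of multi-mapping reads: not given in the sources used here. Totals ran from 23213612 to 29295266 reads, and intervals would cover reads, not molecules. Symbols and coordinates came from GENCODE on GRCm38, and 84 identifiers had no symbol.

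One model in edgeR 4.0.16 (run under R 4.3.3) covered all 12 libraries, scaled by TMM, with 1 mean per group, because 3 mice per group give few degrees of freedom. The filter on low counts removed no gene. The quasi-likelihood test was two-sided, with Benjamini-Hochberg adjustment over 14881 genes and a threshold of 0.05. CPM are relative to scaled library totals, and list levels are means of gene-centred log2 CPM with a prior count of 2. SE was taken from the fold change and the F statistic. On simulated counts with 200 of 14881 genes changed in this comparison, 43.5%, 74% and 92.5% were recovered at 1.25, 1.5 and 2-fold, beside 8, 14 and 4 false calls. These counts were drawn independently for each gene and library. The data hold intermediate libraries and lists that shift together within a mouse, so these rates may not carry over to them.

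Named genes were up to 15 with the smallest p per direction among those that passed (with a symbol that is no Gm or Rik name), list members that passed, up to 6 per list, and 32 followed genes. Other list members and the neighbours on chromosome 19 were named as examples after their values were seen. Members, the 43 lists and the rule were chosen with earlier results of these data known. Groups came from sample titles. Alternatives were DESeq2 1.42.0 size factors and Wald test, no filter, limma-voom (limma 3.58.1) with sample quality weights, only the libraries compared, choroid plexus level as covariate, each library left out, and libraries 3, 6, 9 and 12 left out together. The values of 1 member of the myelin list are not reported here.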

Additional observations from a re-analysis of the deposited data

How the results depend on the processing

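The count of 23 genes (9 higher with mVEGF-C, 14 lower) was 24 with DESeq2 size factors and 23 without a filter. It was 125 (50 and 75) with the DESeq2 Wald test, in which 2021 genes had no adjusted p. Limma-voom with sample quality weights gave 746 (323 and 423). With only the libraries of the 2 groups the count was 15 (5 and 10), and 9 of these were among the 23. Mobp, Mal and Bcas1 were among the genes that then missed the threshold. Leaving out 1 library gave 8 to 124 genes (2 to 52 higher, 6 to 72 lower). Without libraries 3, 6, 9 and 12 it gave 0 in each direction. For eGFP+mAdu against eGFP+mIgG the count of 5 became 47 with the Wald test, 507 with limma-voom, 4 to 35 with 1 library left out and 2 without libraries 3, 6, 9 and 12. For mVEGF-C+mIgG against eGFP+mIgG the count of 6 became 20, 937, 1 to 52 and 2 in the same order, and 2 with only the libraries of the 2 groups. All 23 genes kept their direction in all 19 alternatives and passed with DESeq2 and limma-voom. The alternatives reuse the libraries from which the genes were chosen, so a kept direction is no independent check. Over the named genes and alternatives, 797 values stayed on their side of the threshold, 104 fell short of it, 30 newly passed it, 19 changed sign without passing in either analysis, and none that passed in either reversed. The causes of these shifts were not tested. The lowest total of a gene was 147 reads, so depth limits the genes near 1 CPM most. No paired analysis was possible because the sample numbers run from 1 to 12 and are not shared between groups.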
